A study of Mus musculus with 16 samples.

Results

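Corticothalamic layer 6 neurons of the mouse medial prefrontal cortex were picked out of single-nucleus RNA-seq data by their marker counts. A nucleus was taken when it held at least 1 UMI (unique molecular identifier, a counted RNA molecule) of Slc17a7, the vesicular glutamate transporter of cortical excitatory neurons, and 0 UMIs of the GABA-synthesis genes Gad1 and Gad2. It also needed at least 2 UMIs of Foxp2, at least 4 UMIs over Foxp2, Tle4, Col12a1 and Zfpm2 together, and at most 1 UMI each of Tshz2 and Cux2. The rule found 357 of 114512 nuclei (0.312%). These were 0.655% of the 54463 glutamatergic nuclei, which are nuclei with Slc17a7 and without Gad1 or Gad2.

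The nuclei came from 16 male mice aged 22 weeks, 4 in each of 4 groups: WT control, WT alcohol, 3xTg-AD and 3xTg-AD alcohol. 3xTg-AD mice carry human APP and tau transgenes, both driven by a Thy1 cassette and so expressed in neurons, together with a further knock-in allele. The WT mice had the mixed B6;129 background, and the study's text calls them littermate controls. Alcohol mice received ethanol with pyrazole, an inhibitor of alcohol dehydrogenase, and intermittent ethanol vapor, whereas mice of both control groups received pyrazole in saline and air. All mice were tested in a water maze before the prelimbic and infralimbic cortex was frozen, and the human transgenes themselves were not among the genes counted.

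Corticothalamic neurons sit in layer 6 and send their axons to the thalamus, with branches to the thalamic reticular nucleus. The transcriptional regulators FOXP2, TLE4, SOX5 and TBR1 mark them and take part in giving them their identity during development, TBR1 and SOX5 partly by holding back the subcerebral program that FEZF2 drives. In the prefrontal cortex they connect with the mediodorsal and midline thalamus, a loop used in working memory and flexible behaviour. Layer 6 also holds intratelencephalic neurons, near-projecting neurons lie at its upper border, and the thin layer 6b below it keeps neurons related to the embryonic subplate.

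Corticothalamic nuclei were unevenly spread over the mice. Of the WT control mice, mouse 26 gave 9, mouse 27 gave 6, mouse 28 gave 2 and mouse 36 gave 50. WT alcohol mice 6, 7, 17 and 18 gave 12, 5, 67 and 17, and 3xTg-AD mice 12, 13, 14 and 21 gave 43, 9, 6 and 12. In the 3xTg-AD alcohol group, mice 4, 31, 33 and 34 gave 15, 27, 16 and 61. Thus 1 mouse of each group (mice 36, 17, 12 and 34) was far above the others, and these 4 mice held 221 of the 357 nuclei (61.9%). Only 10 mice had at least 10 corticothalamic nuclei. Levels are given in CPM (UMIs of the gene per 1000000 UMIs of the same nuclei). Across all glutamatergic nuclei the same 4 mice had the highest Foxp2 level, 43.5 to 50.6 CPM against 11.1 to 27.3 CPM in the other 12. That set includes the corticothalamic nuclei, and Foxp2 chose them, so this is a description and no separate support. In the other glutamatergic nuclei alone, Foxp2 was at 29.5 to 31.8 CPM in the 4 mice and 9.2 to 21.3 CPM in the other 12.

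Each corticothalamic nucleus held a median of 3068 UMIs (987 to 8844) and 1715 genes, more than the 2038 UMIs and 1246 genes of the other glutamatergic nuclei. A rule that asks for several UMIs of chosen genes favours deep nuclei, so values below are also given against the 14169 other glutamatergic nuclei that lay between the lower and upper quartiles of the corticothalamic nuclei (2498 and 3953 UMIs), with a median of 3033 UMIs. These are called depth-matched below, although only the middle of the depth range was matched and the corticothalamic nuclei themselves were all kept. Summed over nuclei, the depth was 1192235 UMIs, and ranged from 3615 to 279118 UMIs per mouse. At the lowest of these depths, 1 UMI already makes a level above that of most genes named here.

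The rule genes themselves are given only as a description. The 4 markers summed to a median of 6 UMIs and at most 18. Foxp2 stood at exactly 2 UMIs in 257 nuclei, at 3 in 73, at 4 in 20 and at 5 in 7. Tle4 was missing in 20 nuclei, Zfpm2 in 182 and Col12a1 in 224, and 62 nuclei had all 4 markers. On the pooled counts, Foxp2 was at 711 CPM against 20.5 CPM in other glutamatergic nuclei, Tle4 at 914 against 158, Zfpm2 at 221 against 31.6 and Col12a1 at 184 against 29.2 CPM. Slc17a7, which both populations had to hold, was at 887 and 911 CPM.

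Most nuclei lay close to a threshold. The 257 nuclei with exactly 2 Foxp2 UMIs had 81.2 CPM of Syt6, 140 CPM of Hs3st4, 153 CPM of Rprm and 288 CPM of Garnl3, all genes that the rule did not use. The 688 nuclei with 1 Foxp2 UMI that met the rest of the rule had 72.1, 119, 147 and 359 CPM of the same genes. Of nuclei with 4 marker UMIs there were 60, with Syt6 at 43.0, Hs3st4 at 123, Rprm at 215 and Garnl3 at 209 CPM. Of those with 3 there were 73, at 38.8, 107, 102 and 208 CPM. Across this threshold Rprm differed on the pooled counts, and so did Rorb, a marker of other layers, at 30.7 CPM inside and 72.7 CPM outside. These values rest on 60 and 73 nuclei, and their spread over mice was not measured. Tshz2 at 1 UMI let in 8 nuclei and at 2 UMIs kept out 1, and the same counts for Cux2 were 9 and 1. A further 55 nuclei missed the rule only through Slc17a7 and 69 only through a Gad1 or Gad2 UMI. A wider set of 1470 nuclei just outside the rule (Foxp2 at least 1 UMI, the 4 markers at least 2, Tshz2 and Cux2 at most 1, median 2619 UMIs) is used below as a second, non-overlapping sample of Foxp2-positive nuclei from the same mice.

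Some libraries stood apart. Gm42418, a transcript overlapping ribosomal RNA repeats, was at 13918 and 11245 CPM in the corticothalamic nuclei of WT control mice 26 and 27 and at 10749 CPM in 3xTg-AD mouse 12, against 1349 to 3596 CPM in the other 13 mice. In the library labelled WT alcohol mouse 17, which held 67 of the nuclei, Rnf121 was at the level of 3xTg-AD mice, as described below. Of 112806 barcode sequences, 1694 occurred in more than 1 mouse, among them those of 12 corticothalamic nuclei, and no 2 corticothalamic nuclei shared one.

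The nuclei were next described by 15 genes of the corticothalamic literature that the rule had not used. This list was chosen with earlier results of these data known, so it is no independent check of the label. Because the nuclei were picked by their own counts, this comparison describes them, and the threshold below serves to sort genes. Syt6, a synaptotagmin and a layer 6 marker, was at 80.8 ± 34.9 CPM in the corticothalamic nuclei and 11.7 ± 5.21 CPM in the other glutamatergic nuclei of the same mice (SD, n = 10 mice with at least 10 nuclei). Hs3st4, a heparan sulfate sulfotransferase, was at 129 ± 48.7 against 36.9 ± 10.5 CPM. Garnl3, a Rap GTPase-activating protein family gene, was at 340 ± 85.7 CPM (229 to 476) against 97.8 ± 26.5 CPM (66.0 to 159). For all 3 genes the corticothalamic nuclei were higher in 10 of 10 mice, and for Hs3st4 and Garnl3 the ranges over these mice did not overlap.

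Crym, the thyroid hormone-binding crystallin mu, was at 207 ± 63.8 against 130 ± 24.1 CPM and higher in 10 of 10 mice, although the ranges overlapped. Rprm, a cell-cycle inhibitor expressed in layer 6, was at 130 ± 60.0 against 42.5 ± 11.6 CPM, and Sulf1, a heparan sulfate endosulfatase, at 83.9 against 17.3 CPM on the pooled counts, each higher in 9 of 10 mice. Thsd7b was at 61.7 ± 43.3 against 10.1 ± 5.36 CPM and higher in 8 of 10. Of the transcription factors, Sox5 was at 161 ± 64.2 against 81.0 ± 15.7 CPM, Tbr1 at 118 ± 41.2 against 65.3 ± 9.54 CPM and Nfia at 129 ± 52.3 against 52.2 ± 11.2 CPM, each higher in 9 of 10 mice. Sox5 and Tbr1 thus differed by less than Syt6 or Thsd7b did, in units of fold. In other glutamatergic nuclei both were near their level in nuclei marked as astrocytes, read below as the background of free RNA. On the pooled counts Sox5 was at 82.8 and 85.1 CPM, Tbr1 at 62.9 and 56.6 CPM, and Syt6 at 10.6 and 4.01 CPM. Rprm (38.1 and 34.9 CPM) and Hs3st4 (33.3 and 26.6 CPM) were near their astrocyte level as well. These 2 genes were at 158 and 136 CPM in corticothalamic nuclei. Whether free RNA narrowed the fold of Sox5 and Tbr1 was not tested.

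Fezf2, a transcription factor of deep-layer projection neurons, was at 90.2 ± 40.8 against 53.3 ± 8.65 CPM and higher in 8 of 10 mice. Its pooled level was 48.8 CPM in other glutamatergic nuclei and 39.6 CPM in nuclei marked as astrocytes. The other 4 genes of the list overlapped more closely, rested on few UMIs or were lower. Gabra5, the alpha 5 subunit of GABA-A receptors, was at 38.2 ± 9.75 against 33.9 ± 3.98 CPM. Ntsr1, the neurotensin receptor whose promoter drives a widely used corticothalamic Cre line, had only 10 UMIs in 4 mice (8.39 against 3.99 CPM pooled). Chrna5, a nicotinic receptor subunit of layer 6, had 8 UMIs in 5 mice (6.71 against 2.20 CPM pooled), and was at 10.5 ± 23.9 against 2.43 ± 1.26 CPM and higher in 4 of 10 mice (SD, n = 10). Trpm3, a cation channel, was lower in the corticothalamic nuclei, with 8 UMIs (6.71 against 18.4 CPM pooled).

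**Figure D1:**
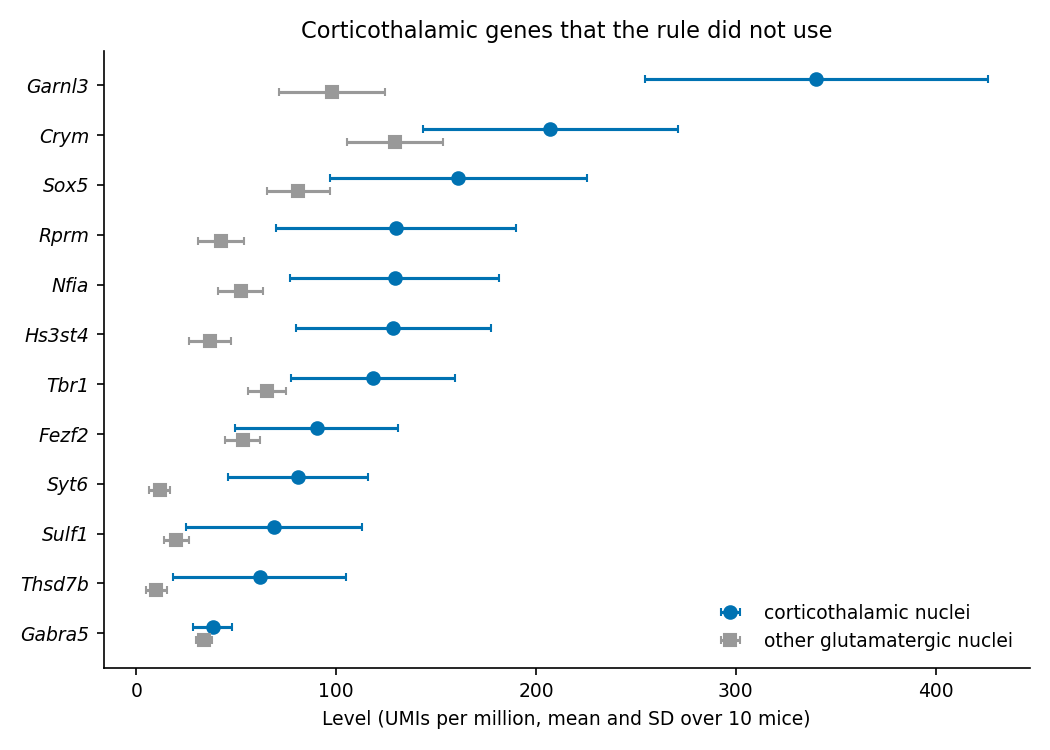
Mean level (CPM) of 12 corticothalamic genes that the rule did not use, in corticothalamic nuclei (circles) and other glutamatergic nuclei (squares) of the 10 mice with at least 10 corticothalamic nuclei, with bars for the SD over mice. Garnl3 is apart at 340 against 97.8 CPM and Syt6 at 80.8 against 11.7 CPM, whereas the bars of Gabra5 lie over each other at 38.2 and 33.9 CPM.

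Levels by mouse show what this depth allows. Syt6 in the corticothalamic nuclei was at 0, 0, 0 and 64.3 CPM in WT control mice 26, 27, 28 and 36, and at 116, 0, 86.0 and 105 CPM in WT alcohol mice 6, 7, 17 and 18. In 3xTg-AD mice 12, 13, 14 and 21 it was at 61.1, 158, 144 and 66.8 CPM, and in 3xTg-AD alcohol mice 4, 31, 33 and 34 at 23.9, 107, 43.1 and 135 CPM. The mice at 0 had 9 corticothalamic nuclei at most and 3615 to 27878 UMIs in them, but 3xTg-AD mice 13 and 14, with 19038 and 13907 UMIs, were the highest. Garnl3, at a higher level, was missing in 1 mouse: it stood at 251, 274, 0 and 310 CPM in the WT control mice in the same order, at 424, 103, 229 and 246 CPM in WT alcohol, at 306, 52.5, 216 and 267 CPM in 3xTg-AD and at 334, 446, 366 and 476 CPM in 3xTg-AD alcohol mice.

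To compare detection at 1 depth, each nucleus was thinned to 1000 UMIs. Shallower nuclei were left out, namely 1 corticothalamic and 11394 of the 54106 other glutamatergic nuclei. The background of free RNA was read from 2999 nuclei marked as astrocytes, whose median was 1254 UMIs before thinning. Thinning left out 728 of them, so their thinned shares rest on 2271 nuclei. They were picked without any UMI of Slc17a7, Gad1 or Gad2, which favours nuclei with little free neuronal RNA. Garnl3 was then detected in 27.2% of corticothalamic nuclei, 8.47% of other glutamatergic nuclei and 2.86% of astrocyte-marked nuclei, against 60.5% of corticothalamic and 4.1% of astrocyte-marked nuclei without thinning. Rprm was detected in 15.2%, 3.81% and 3.08% (34.7% and 4.50% unthinned), Hs3st4 in 12.9%, 3.39% and 2.20% (32.5% and 3.54%), and Syt6 in 7.02%, 1.12% and 0.440% (23.2% and 0.567%). All 4 genes were above the astrocyte share, and in the other glutamatergic nuclei the share of Rprm was close to it. Ntsr1 was detected in 0.281% of thinned corticothalamic and 0.484% of astrocyte-marked nuclei, but in 2.52% and 0.534% without thinning and at 8.39 and 3.77 CPM, so no order was read from its 10 UMIs. Chrna5 was detected in 0.843% of thinned corticothalamic, 0.243% of other glutamatergic and 0.0881% of astrocyte-marked nuclei, also on few UMIs. Nfia and Trpm3 are expressed by astrocytes as well, with 213 and 124 CPM there, so their astrocyte shares of 18.8% and 11.4% give no background.

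The genes of the 15-gene list summed to 1639 CPM in corticothalamic nuclei and 624 CPM in other glutamatergic nuclei, and the sum was higher in 16 of 16 mice. Markers of layer 2/3 to 5 intratelencephalic neurons summed to 237 against 649 CPM and were lower in 16 of 16 mice. Layer 5 extratelencephalic markers summed to 101 against 415 CPM with Npsr1 at 0, near-projecting markers to 45.3 against 85.0 CPM with Slc17a8 and Dlk1 at 0, and layer 6 intratelencephalic and claustrum markers to 162 against 203 CPM with Osr1 and Car3 at 0. Only the layer 6b markers (122 against 103 CPM) and striatal markers (631 against 566 CPM, with Adora2a at 0) were not lower on the pooled counts, and layer 6b markers were higher in 6 of 16 mice. The layer 6 intratelencephalic and claustrum sum was higher in 5 of 16 mice.

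Markers of non-excitatory cells were low but present. Interneuron markers summed to 584 against 1161 CPM with Sncg at 0, astrocyte markers to 235 against 731 CPM, oligodendrocyte markers to 216 against 367 CPM, precursor markers to 27.7 against 50.5 CPM, microglia markers to 47.0 against 122 CPM, and vascular markers to 19.3 against 60.7 CPM with Cldn5, Col1a1, Col1a2 and Slc6a13 at 0. All of these were lower in the deeper corticothalamic nuclei. At least 2 UMIs over 48 markers of other classes occurred in 44 nuclei, and the 313 without them were analysed as a purer set.

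Genes were then compared between corticothalamic and other glutamatergic nuclei in sums per mouse, in edgeR with mouse as a block. The other glutamatergic nuclei were all those that failed the rule. They included the 1470 nuclei just outside it, with Syt6 at 60.7 CPM, so they were not free of nuclei with a like profile. Genes were sorted by an adjusted p of at most 0.05 and a difference of at least 2-fold. Of 12009 genes outside the rule, 169 were higher (1.41%) and 457 were lower (3.81%) in corticothalamic nuclei, and the median log2 difference of all genes was -0.00. Of the 457 lower genes, 377 were under 20 CPM in the corticothalamic nuclei, where few UMIs carry the estimate, and 18 had no UMI there. A gene could pass the filter on low counts through the large sums of the other nuclei alone. One found only in corticothalamic nuclei needed UMIs in nearly all of their small sums. The filter thus favoured lower genes, and their excess over higher ones was not read as a result, here or in the lists below. Against the depth-matched nuclei, 9053 genes could be compared, of which 72 were higher (0.795%) and 242 lower (2.67%). Of these 314 genes, 288 were also among the first 626. The corticothalamic list had 7 genes higher and 1 lower of 13, with a median log2 difference of 1.40, and the same 7 and 1 with a median of 1.48 at matched depth.

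The genes with the largest differences upwards included markers and genes of other kinds. Thsd7b differed by 2.69 ± 0.19 and Syt6 by 2.65 ± 0.18 (log2 difference ± SE), or 2.39 and 2.43 at matched depth. Arhgap25, a Rac GTPase-activating protein, differed by 2.38 ± 0.22, and Col5a1, a chain of fibrillar collagen V, by 2.24 ± 0.17, from 20.5 to 112 CPM on the pooled counts. Further ones were Itga7 (a laminin-binding integrin) at 2.18, Hcrtr2 (the orexin 2 receptor) at 2.17 ± 0.27, Cpa6 (a carboxypeptidase) at 2.05 and Sla (an adaptor of Src-family signalling) at 2.01. Trbc1, at 2.12, and Ighm, at 2.11 ± 0.22, are constant-region genes of the T cell receptor and of IgM, and for Trbc1 reads may be split with the near-identical Trbc2. Among list genes, Sulf1 differed by 1.91, Rprm by 1.77 ± 0.14, Hs3st4 by 1.77 ± 0.15, Garnl3 by 1.65 ± 0.10 and Nfia by 1.40 ± 0.14. Sox5 (0.98), Tbr1 (0.93), Crym (0.68) and Fezf2 (0.56) were under 2-fold, and Gabra5 (0.16) had an adjusted p of 0.733 in edgeR.

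Downwards, Rreb1, a zinc-finger transcription factor, had 0 UMIs against 36.4 CPM in other glutamatergic nuclei, which is at least 14.5-fold lower with a floor of 3 counts over all corticothalamic nuclei. Car4, a membrane-bound carbonic anhydrase, had 1 UMI against 28.6 CPM, and Prag1, Bicc1 and Igfn1 had 2 UMIs each against 24.3, 21.1 and 21.9 CPM. With more UMIs, Lrtm1, a leucine-rich repeat membrane protein, was at 7.55 against 81.5 CPM and differed by -3.25 ± 0.33. Gpc6, a heparan sulfate proteoglycan of the glypican family, was at 14.3 against 128 CPM and differed by -3.05 ± 0.25. Rskr differed by -3.26 ± 0.30, Clec18a by -3.16 ± 0.41 and Cpne9, a calcium-binding copine, by -3.02 ± 0.36.

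**Figure D2:**
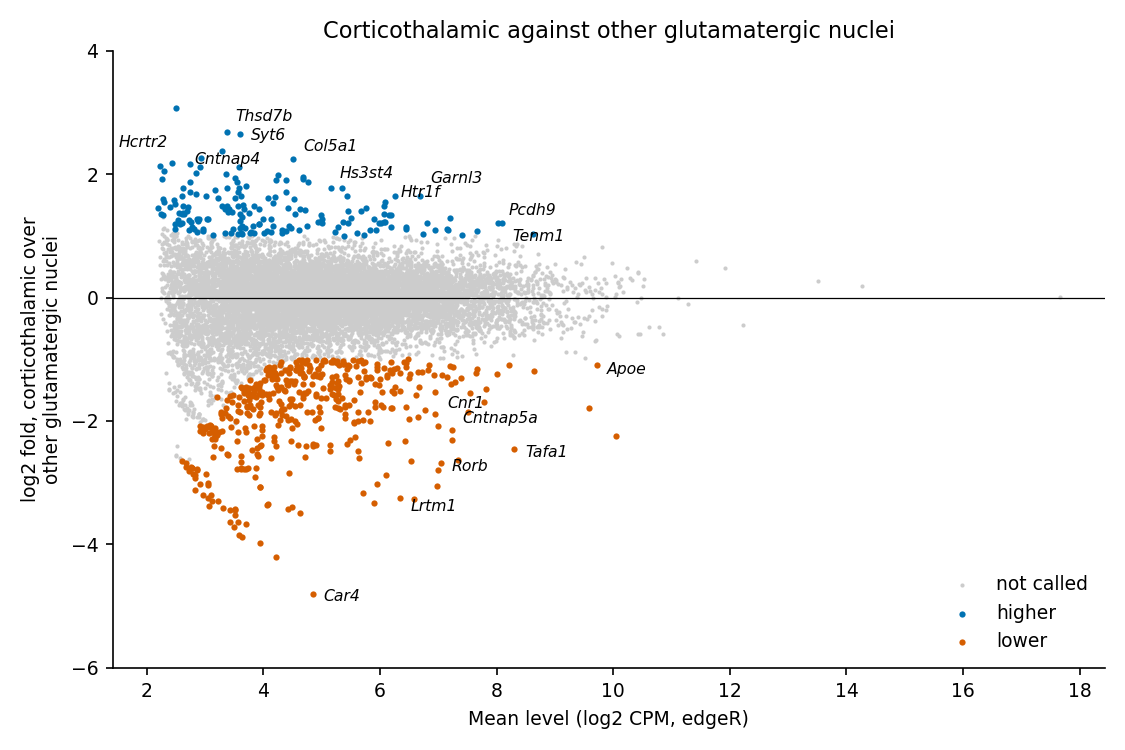
Each point is 1 of the genes compared between corticothalamic and other glutamatergic nuclei, by its mean level (log2 CPM, horizontal) and its log2 difference (vertical), with blue for the 169 genes higher and orange for the 457 lower by the sorting rule. Thsd7b at 2.69 and Syt6 at 2.65 stand among the highest, the lower genes fan out at low levels, and 18 genes lie below the axis.

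Single receptor genes for transmitters differed in both directions, where 1.41% of all genes were higher and 3.81% lower. Of 23 glutamate receptor genes, Grik3, a kainate receptor subunit, was higher (156 against 50.7 CPM, log2 difference 1.46 ± 0.14) and so was Grm8, a presynaptic metabotropic receptor (1.10 ± 0.15). Grm2 was lower (-1.28 ± 0.37), as were Grik1 and Grin2c, at 2 UMIs each. Of 18 GABA and glycine receptor genes, Glra2, the alpha 2 glycine receptor subunit, was higher (46.1 against 11.1 CPM, 1.78 ± 0.23) and Gabra2 lower (62.9 against 151 CPM, -1.10 ± 0.16). No other gene of either list passed, and the medians were 0.06 and 0.09. The counts were not read as a result about the lists.

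Neuromodulator receptors held 6 higher and 5 lower genes of 21, with a median of 0.10, where 1.41% of all genes were higher and 3.81% lower. Besides Hcrtr2, the higher ones were Htr1f, a Gi-coupled serotonin receptor (194 against 63.9 CPM, 1.36 ± 0.13), Drd1, the dopamine D1 receptor (37.7 against 12.6 CPM, 1.36 ± 0.24), Oprd1, the delta opioid receptor (1.54 ± 0.38 on 14 UMIs), Chrna4, a nicotinic subunit (43.6 against 15.1 CPM, 1.27 ± 0.23), and Adra1a, an alpha 1 adrenoceptor (1.27 ± 0.23). Htr1f and Chrna4 were higher in 10 of 10 mice and Drd1 in 6 of 10. Drd1 is also a gene of the layer 6b list, and stood at 121 CPM in the 63 nuclei marked as layer 6b. The lower ones were Cnr1, the CB1 cannabinoid receptor (31.9 against 126 CPM, -1.89 ± 0.20, lower in 10 of 10 mice), Crhr1, the CRF1 receptor (-2.41 ± 0.48 on 5 UMIs), Htr1b (-1.32 ± 0.43), Htr2a (-1.22 ± 0.38) and Adrb1 (-1.13 ± 0.24). Of these, Htr2a had an adjusted p of 0.054 in edgeR at matched depth.

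Ion channel and calcium genes that passed were lower except 1, where 1.41% of all genes were higher and 3.81% lower. Of 36 potassium, sodium and HCN channel genes 0 were higher and 4 lower, namely Kcnb2 (26.8 against 77.8 CPM, -1.46 ± 0.23), Kcnc2 (-1.38 ± 0.31), Kcnh5 (-1.22 ± 0.44) and Kcnq5 (-1.20 ± 0.26), and the list's median was 0.08. Of 35 calcium genes 1 was higher and 6 lower with a median of -0.05. Of the ryanodine receptors, Ryr3 was at 154 against 63.2 CPM (1.23 ± 0.14), Ryr1 at 11.7 against 49.4 CPM (-1.85 ± 0.32), and Ryr2 was under 2-fold (0.32 ± 0.08). At matched depth Ryr3 was just under 2-fold too (0.999). Cacna2d3, an auxiliary calcium channel subunit, was at 30.2 against 131 CPM (-2.09 ± 0.20), the T-type channels Cacna1g and Cacna1h differed by -1.74 ± 0.27 and -1.51 ± 0.24, Camk2d by -1.36 ± 0.16, and Itpr2 had 2 UMIs.

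Adhesion and guidance genes differed in both directions, where 1.41% of all genes were higher and 3.81% lower. Of 23 cadherins and protocadherins, Pcdh9 (548 against 236 CPM, 1.20 ± 0.08) and Cdh18 (84.7 against 30.4 CPM, 1.33 ± 0.18) were higher, and Cdh8 (-1.25), Cdh10 (-1.30), Pcdh15 (-1.42), Cdh7 (-1.74), Cdh4 (-2.40 on 4 UMIs) and Pcdh20 (1 UMI) were lower. Of 42 synaptic adhesion genes, Cntnap4, a neurexin-family protein (108 against 23.6 CPM, 1.96 ± 0.17), Lrrtm2, a postsynaptic neurexin ligand (187 against 63.3 CPM, 1.49 ± 0.13), and Tenm1, a teneurin (563 against 246 CPM, 1.21 ± 0.08), were higher. Cntnap5a (32.7 against 154 CPM, -2.14 ± 0.19), Cntn3 (-1.78 ± 0.27) and Il1rapl2 (-1.77 ± 0.50 on 5 UMIs) were lower.

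Of 28 axon guidance genes 4 were higher and 8 lower, against 1.41% and 3.81% of all genes. The 4 higher ones, each in 10 of 10 mice, were the semaphorin Sema5a (117 against 25.4 CPM, 1.88 ± 0.16), the semaphorin and VEGF co-receptor Nrp1 (143 against 40.3 CPM, 1.65 ± 0.15), the netrin receptor Dcc (1.42 ± 0.19) and the semaphorin receptor Plxna2 (298 against 136 CPM, 1.09 ± 0.10). The 8 lower ones were Ntng1, netrin G1 (30.2 against 155 CPM, -2.31 ± 0.20), Epha3 (-2.27 on 4 UMIs), Plxnd1 (-1.98), the netrin receptors Unc5d (-1.59) and Unc5c (-1.31), Efna5 (-1.55), and the Robo ligands Slit3 (-1.28) and Slit2 (-1.02). At matched depth, Plxna2 (0.96), Tenm1 (0.99), Stxbp5l (0.90) and Grm8 were under 2-fold.

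Vesicle release genes had 1 higher, the tomosyn Stxbp5l (402 against 188 CPM, 1.09 ± 0.09), and 1 lower, Unc13c (5 UMIs), of 29. With 1.41% of all genes higher and 3.81% lower, these counts were not read as a result about the list. In 29 Alzheimer disease genes, Apoe (372 against 936 CPM, -1.10 ± 0.08), Sorcs3 (-1.77 ± 0.28) and Slc24a4 (-1.99 ± 0.41) were lower and 0 were higher. Apoe, which astrocytes make, moved with the astrocyte markers and at matched depth differed by -0.48. Outside these lists, Rgs9, a regulator of G protein signalling on the striatal list, was higher (36.9 against 11.8 CPM, 1.43 ± 0.25), and so was H2-T23, a nonclassical MHC class I gene (1.13 ± 0.26). Of the 5 striatal and 10 interferon and MHC genes measured no other gene passed. Of 19 chaperones, 16 activity-regulated genes, 11 thymosin and actin genes, 6 genes associated with ribosomal RNA repeats, 13 mitochondrial genes, 4 transgene-linked genes, 78 ribosomal protein genes and 77 oxidative phosphorylation genes 0 passed, with medians of -0.42 for ribosomal protein and -0.40 for oxidative phosphorylation genes that became -0.17 in both lists at matched depth.

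Marker genes of other classes that passed were lower, except Drd1 of the layer 6b list and Rgs9 of the striatal list. Over all genes 1.41% were higher and 3.81% lower, or 0.795% and 2.67% at matched depth. Of 10 layer 2/3 to 5 intratelencephalic markers 6 were lower with a median of -1.53: Rorb (25 UMIs, 138 CPM in the other nuclei, -2.68 ± 0.22), Rasgrf2 (-1.77), Lamp5 (-1.30), Stard8 (-1.91), Il1rapl2 and Otof (3 UMIs). Of 6 extratelencephalic markers, Tafa1 (55.4 against 337 CPM, -2.45 ± 0.18) and Pou3f1 (-1.29 ± 0.34) were lower. The near-projecting markers Nxph1 (-1.21) and Vwc2l (2 UMIs) and the claustrum-list gene Zfp804b (3 UMIs) were lower too. Astrocyte markers had 7 lower of 10 with a median of -1.74, among them Mertk (2 UMIs), Rorb, Slc1a3 (-1.97), Slc7a10 (-1.85), Gja1 (-1.64) and Aqp4 (-1.42), and at matched depth 3 of 6 with a median of -0.94. The oligodendrocyte genes Mag (3 UMIs), Mobp (-1.35) and Mbp (-1.09), the precursor gene Vcan (1 UMI), the microglia genes Cx3cr1 (1 UMI), Tgfbr1 (3 UMIs), C1qa (-1.80) and C1qb (-1.17), and the vascular genes Flt1 and Pdgfrb (2 UMIs each) were lower as well, and 1 gene of the interneuron list was lower. At matched depth Mbp (-0.49), Mobp (-0.77), Gja1 (-0.85) and Pou3f1 (-0.95) were under 2-fold.

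The nearest neighbours in the tissue were compared next. Near-projecting-like nuclei (at least 4 UMIs of Tshz2) numbered 922, with a median of 1856 UMIs, and 1901 genes had enough counts. Of these, 51 were higher (2.68%) and 37 lower (1.95%) in corticothalamic nuclei. Of 5 corticothalamic genes compared, Garnl3 (1.45 ± 0.15) and Rprm (1.12 ± 0.20) were higher, Crym (0.44) and Sox5 (0.25) were under 2-fold, and Fezf2 was lower (-1.02 ± 0.19), at 75.5 against 169 CPM. The median of the 5 was 0.44 against 0.02 for all genes. The 63 layer 6b-like nuclei, which 5 mice lacked, were too few to be compared by mouse. On the pooled counts Syt6 was at 5.26 CPM there against 85.6 CPM in corticothalamic nuclei, Hs3st4 at 78.9 against 136 CPM and Thsd7b at 57.9 against 79.7 CPM. Sulf1, at 99.96 against 83.9 CPM, and Gabra5, at 84.2 against 37.7 CPM, stood higher in the layer 6b-like nuclei on these counts. After thinning, Gabra5 was again detected in more layer 6b-like than corticothalamic nuclei (12.9% against 3.65%). Syt6 (1.61% against 7.02%) and Hs3st4 (8.06% against 12.9%) also kept their order. For Sulf1 (4.84% against 7.58%) and Thsd7b (6.45% against 4.21%) the order was reversed, so none was read for these genes. Not all genes of the corticothalamic list thus set the nuclei apart from the few layer 6b-like ones. Nor did all 4 markers of the rule on the pooled counts. Col12a1 was at 213 CPM in near-projecting-like and 210 CPM in layer 6b-like nuclei, above its 184 CPM in corticothalamic nuclei. Tle4 was at 680 and 852 CPM there, against 914 CPM. Zfpm2, at 39.3 and 116 against 221 CPM, and Foxp2, at 51.9 and 42.1 against 711 CPM, were lower in both.

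The share of corticothalamic nuclei was compared between groups to ask whether genotype or alcohol changed their number. It was 0.551% ± 0.670 of glutamatergic nuclei in WT control, 0.707% ± 0.836 in WT alcohol, 0.535% ± 0.560 in 3xTg-AD and 0.948% ± 0.913 in 3xTg-AD alcohol mice (SD, n = 4 each). Within each group the shares of single mice ran from 0.0598% to 1.54%, from 0.173% to 1.95%, from 0.170% to 1.37% and from 0.349% to 2.29%, so the spread within a group exceeded every difference between groups.

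The difference between 3xTg-AD alcohol and WT control was 0.397 percentage points, that between 3xTg-AD and WT control -0.0169, between WT alcohol and WT control 0.156, between 3xTg-AD alcohol and 3xTg-AD 0.414 and between 3xTg-AD alcohol and WT alcohol 0.241. Averaged over the other factor, genotype differed by 0.112 and alcohol by 0.285 points. In 7 two-sided exact permutation tests the p-values lay between 0.450 and 0.943, and after Benjamini-Hochberg adjustment between 0.840 and 0.943 (the smallest p these designs allow is 0.0286 for 4 against 4 and 0.000155 for 8 against 8). With this spread, a change in number was not detectable. Fewer such cells in the tissue and fewer marker UMIs per nucleus cannot be told apart by this share. After thinning to 1000 UMIs only 19 nuclei met the rule, 4 in WT control, 6 in WT alcohol, 4 in 3xTg-AD and 5 in 3xTg-AD alcohol mice. The nuclei just outside the rule made up 2.63% ± 1.54, 2.52% ± 1.92, 2.44% ± 1.87 and 3.64% ± 2.15 in the same order (SD, n = 4), with adjusted p of 0.857 to 0.943 in the same exact permutation tests.

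**Figure D3:**
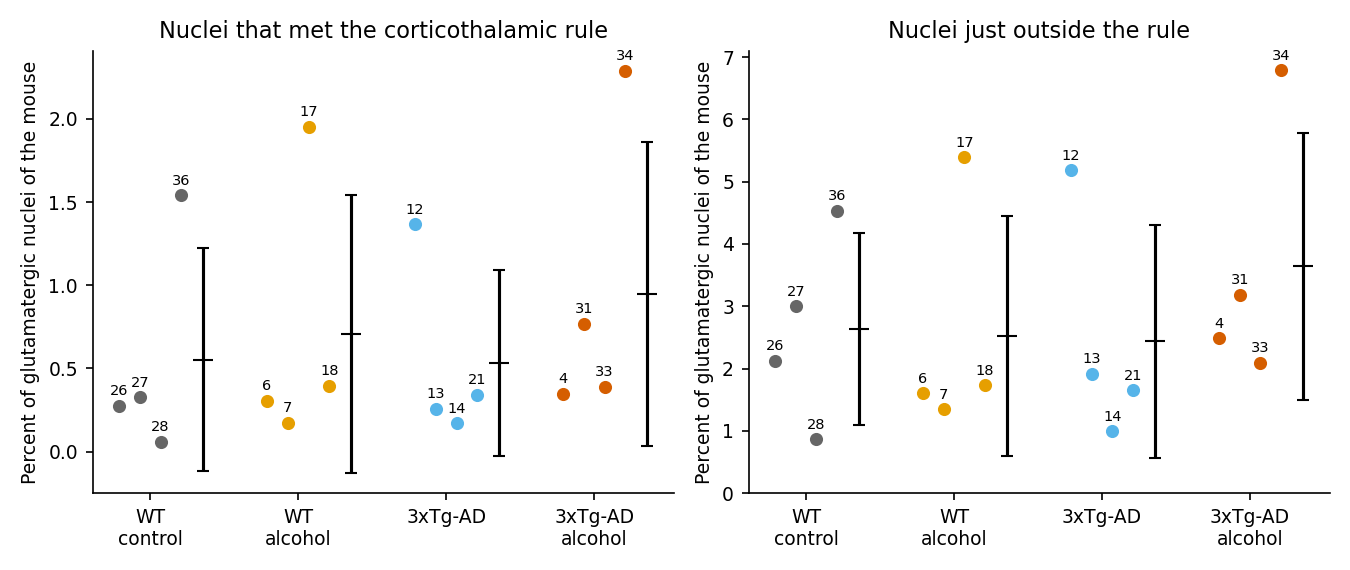
Percent of a mouse's glutamatergic nuclei that met the corticothalamic rule (left) and that lay just outside it (right), 1 point per mouse with its number, and the mean with the SD of each group. Mice 36, 17, 12 and 34 are the highest of their group in both panels, in the right one at 4.53%, 5.39%, 5.18% and 6.79%, and the SD bars of all 4 groups overlap.

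Col12a1, a fibril-associated collagen and 1 of the rule's 4 markers (chr9:79598991-79718831, mm10), itself differed with genotype, which bears on the rule. Over all glutamatergic nuclei it was at 9.9 to 29.1 CPM in the WT and 26.4 to 76.7 CPM in the 3xTg-AD mice of both treatments, and higher by 1.13 ± 0.26 (log2, SE, adjusted p = 0.0309 in edgeR, where 388 of 15509 genes or 2.5% passed). Foxp2 (0.06, adjusted p = 0.967), Tle4 (0.22) and Zfpm2 (0.35) did not pass in that test. A rule without Col12a1 found 336 nuclei, and under it Tmsb4x, described next, lost its calls against WT control in edgeR. The rises themselves hardly moved, from 1.24 to 1.25 in 3xTg-AD alcohol (adjusted p = 0.0505) and from 1.16 to 1.18 in 3xTg-AD (adjusted p = 0.205). The rise of Tmsb4x with genotype over both treatments still passed.

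**Figure D4:**
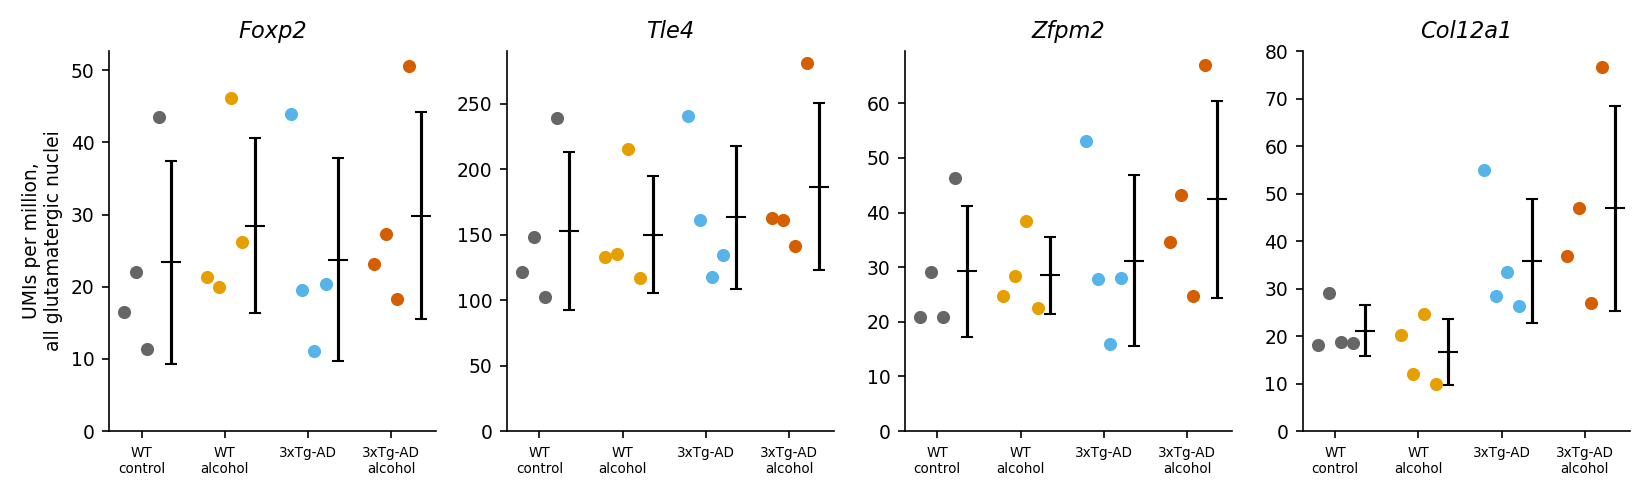
Level of the 4 summed markers over all glutamatergic nuclei (CPM), 1 point per mouse, with mean and SD of each group. For Foxp2 the groups overlap and 1 mouse of each stands high at 43.5 to 50.6 CPM, whereas Col12a1 is at 9.9 to 29.1 CPM in WT and at 26.4 to 76.7 CPM in 3xTg-AD mice.

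Gene levels inside the corticothalamic nuclei were compared between the groups in sums per mouse with edgeR. With 596 genes left by the filter on low counts, few passed an adjusted p of 0.05. In 3xTg-AD alcohol against WT control 1 gene passed (0.168%), in 3xTg-AD against WT control 1 (0.168%) and in 3xTg-AD alcohol against WT alcohol 1 (0.168%). Neither WT alcohol against WT control nor 3xTg-AD alcohol against 3xTg-AD gave any in edgeR (0 of 596, 0%), with 17 and 40 genes at an unadjusted p under 0.05. By DESeq2 these counts were also 0 and 0. Genotype averaged over treatment gave 3 (0.503%), alcohol averaged over genotype 1 (0.168%), and their interaction 0 in edgeR and in DESeq2, with 10 genes at an unadjusted p under 0.05 in edgeR. These were 4 different genes, Tmsb4x, Gpm6b, Rnf121 and A330076H08Rik. The p-values weigh each difference against the spread between mice within groups, taken from 1 fit over all 4 groups.

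Tmsb4x, thymosin beta 4, which binds actin monomers, lies on the X chromosome (X:167207093-167209315, minus strand, mm10). In corticothalamic nuclei it was at 538, 439, 1383 and 900 CPM in WT control mice 26, 27, 28 and 36 and at 1696, 1956, 799 and 859 CPM in WT alcohol mice 6, 7, 17 and 18. It was at 993, 2311, 1941 and 1969 CPM in 3xTg-AD mice 12, 13, 14 and 21 and at 2317, 1164, 2284 and 1404 CPM in 3xTg-AD alcohol mice 4, 31, 33 and 34. The WT control mice were low, and their highest mouse was above the lowest mice of both 3xTg-AD groups. The level rose by 1.24 ± 0.26 from WT control to 3xTg-AD alcohol (log2, SE, adjusted p = 0.00513 in edgeR), by 1.16 ± 0.28 to 3xTg-AD (adjusted p = 0.0376) and by 0.88 ± 0.18 with genotype over both treatments (adjusted p = 0.00182).

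Several alternatives ended these calls. The WT control mice with the lowest Tmsb4x, mice 26 and 27, were those with the highest Gm42418. Without mice 26, 27 and 12 the rise to 3xTg-AD alcohol was 1.02 (adjusted p = 0.245), with Gm42418 as a covariate 0.62 (adjusted p = 0.710), and by the stricter rule 0.89 (adjusted p = 0.986), each in edgeR. The stricter rule left 1 nucleus in WT control mouse 26, 7 in mouse 36 and none in the others of that group. In WT alcohol it left 17 in mouse 17, 5 in mouse 18 and none in the others. Empty mice were dropped, so a call lost by that rule says little here or below. With no filter on low counts it was 1.53 (adjusted p = 0.116). Over mice with at least 10 nuclei it was 0.97 (adjusted p = 0.382), but there the WT control group was mouse 36 alone. Without WT control mouse 27 it was 1.15 (adjusted p = 0.0744). The rise to 3xTg-AD lost its call without any 1 of WT control mice 26, 27, 28 and 36 or 3xTg-AD mice 13, 14 and 21 (1.06 to 1.499, adjusted p = 0.0790 to 0.418). It was 0.18 by the stricter rule (adjusted p = 0.991), 1.18 with no filter (adjusted p = 0.831), and over mice with at least 10 nuclei, with mouse 36 again the lone WT control, it was 0.62 (adjusted p = 1.0). It had an adjusted p of 0.140 in DESeq2, of 0.205 with Gm42418 as a covariate and of 0.329 without mice 26, 27 and 12. The rise with genotype stayed past the threshold when any 1 mouse was left out, but not by the stricter rule (0.41, adjusted p = 0.999), with no filter (0.98, adjusted p = 0.209) or over mice with at least 10 nuclei (0.70, adjusted p = 0.153), with WT control again mouse 36 alone. In the nuclei just outside the rule, Tmsb4x was higher by 1.27 in 3xTg-AD alcohol (adjusted p = 1.46e-05), by 1.44 in 3xTg-AD (adjusted p = 1.26e-06) and by 1.01 with genotype (adjusted p = 1.92e-07). Its change with genotype did not differ between corticothalamic and other glutamatergic nuclei by a size that passed (difference 0.04). Thymosin genes have near-identical copies elsewhere in the genome, so its counts are uncertain to that extent.

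Gpm6b, a proteolipid-family membrane glycoprotein of neurons and glia, lies 818105 bases from Tmsb4x on the same chromosome (X:166238911-166388988, plus strand). It was at 430, 439, 830 and 362 CPM in the WT control mice, in the order above, at 462, 103, 351 and 526 CPM in WT alcohol, at 802, 473, 863 and 701 CPM in 3xTg-AD and at 764, 796, 862 and 872 CPM in 3xTg-AD alcohol mice. The 2 alcohol groups did not overlap, whereas WT control mouse 28, with 2 corticothalamic nuclei, lay among the 3xTg-AD mice. The level rose with genotype by 0.93 ± 0.19 (log2, SE, adjusted p = 0.00182 in edgeR) and from WT alcohol to 3xTg-AD alcohol by 1.02 ± 0.25 (adjusted p = 0.0350). In DESeq2 the second had an adjusted p of 0.207, and it lost its call in edgeR without any 1 of WT control mice 26, 27 and 28, WT alcohol mice 6, 7 and 17 and 3xTg-AD alcohol mice 33 and 34 (0.90 to 1.05, adjusted p = 0.0509 to 0.981). It was also lost with no filter (1.16, adjusted p = 0.790), by the stricter rule (1.13, adjusted p = 0.968), over mice with at least 10 nuclei (0.96, adjusted p = 0.0541) and without the 4 mice with most nuclei (0.86, adjusted p = 0.990). The rise with genotype was 0.64 without the 4 mice with most nuclei (adjusted p = 0.554) and 0.82 without WT control mouse 36 (adjusted p = 0.0557). It lost its call with no filter (0.98, adjusted p = 0.371), by the stricter rule (1.09, adjusted p = 0.627) and, barely, without mice 26, 27 and 12 (0.92, adjusted p = 0.050006). In the nuclei just outside the rule the rises were 0.75 with genotype (adjusted p = 4.24e-05) and 0.84 between the alcohol groups (adjusted p = 0.00457). Astrocyte markers, whose cells also express Gpm6b, summed in the corticothalamic nuclei to 109.7 to 276.6 CPM in WT control, 103 to 254 CPM in WT alcohol, 144 to 420.2 CPM in 3xTg-AD and 196 to 417 CPM in 3xTg-AD alcohol mice, and their part in the result was not tested.

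Rnf121, a ubiquitin ligase of the endoplasmic reticulum and Golgi (7:102019137-102065469, minus strand), fell by 4.93 ± 0.92 with genotype (log2, SE, adjusted p = 0.0282 in edgeR). Corticothalamic nuclei held 251, 494, 830 and 1098 CPM in the WT control mice and 694, 824, 32.2 and 1087 CPM in the WT alcohol mice, but 15.3, 0, 0 and 33.4 CPM in 3xTg-AD and 23.9, 19.4, 0 and 28 CPM in 3xTg-AD alcohol mice. Of the 8 WT libraries 7 were above all 8 3xTg-AD libraries, and the library labelled WT alcohol mouse 17 was among the latter. In the same library Gpm6b (351 CPM) and, over all glutamatergic nuclei, Col12a1 (24.6 CPM) were within the range of the other WT mice, and Tmsb4x was at 799 CPM, below all 3xTg-AD mice. Its other glutamatergic nuclei gave the same picture, with 20.2 CPM against 213 to 1274 CPM in the other WT mice. Without that library the fall was 5.29 (adjusted p = 1.22e-30). The call was lost without any 1 of 11 other mice, WT control 27, 28 and 36, WT alcohol 6, 7 and 18, 3xTg-AD 12, 13, 14 and 21 and 3xTg-AD alcohol 31 (-5.06 to -4.39, adjusted p = 0.0555 to 0.104). It no longer passed over mice with at least 10 nuclei, which include that library and WT control mouse 36 as the only WT control (-5.01, adjusted p = 0.648), or without the 3 mice with most Gm42418 (-5.12, adjusted p = 0.513). In the nuclei just outside the rule the fall was 4.80 (adjusted p = 0.0313).

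A330076H08Rik, a noncoding transcript (7:61930137-61982358, minus strand) named after its values were seen, was the gene that passed for alcohol. It was at 0, 219, 277 and 257 CPM in WT control, 617, 103, 408 and 368 CPM in WT alcohol, 267, 210, 0 and 66.8 CPM in 3xTg-AD and 358, 650, 431 and 532 CPM in 3xTg-AD alcohol mice. The 3xTg-AD alcohol mice were above all mice without alcohol, and WT alcohol mouse 7 was below most of them. The level rose with alcohol by 1.22 ± 0.26 (log2, SE, adjusted p = 0.00499 in edgeR). It no longer passed in the nuclei just outside the rule (0.53, adjusted p = 0.201), with Gm42418 as a covariate (1.34, adjusted p = 0.454) or without WT control mouse 28 (1.22, adjusted p = 0.0537). Over mice with at least 10 nuclei, WT control mouse 36 alone in its group, it was 1.001 (adjusted p = 0.201).

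**Figure D5:**
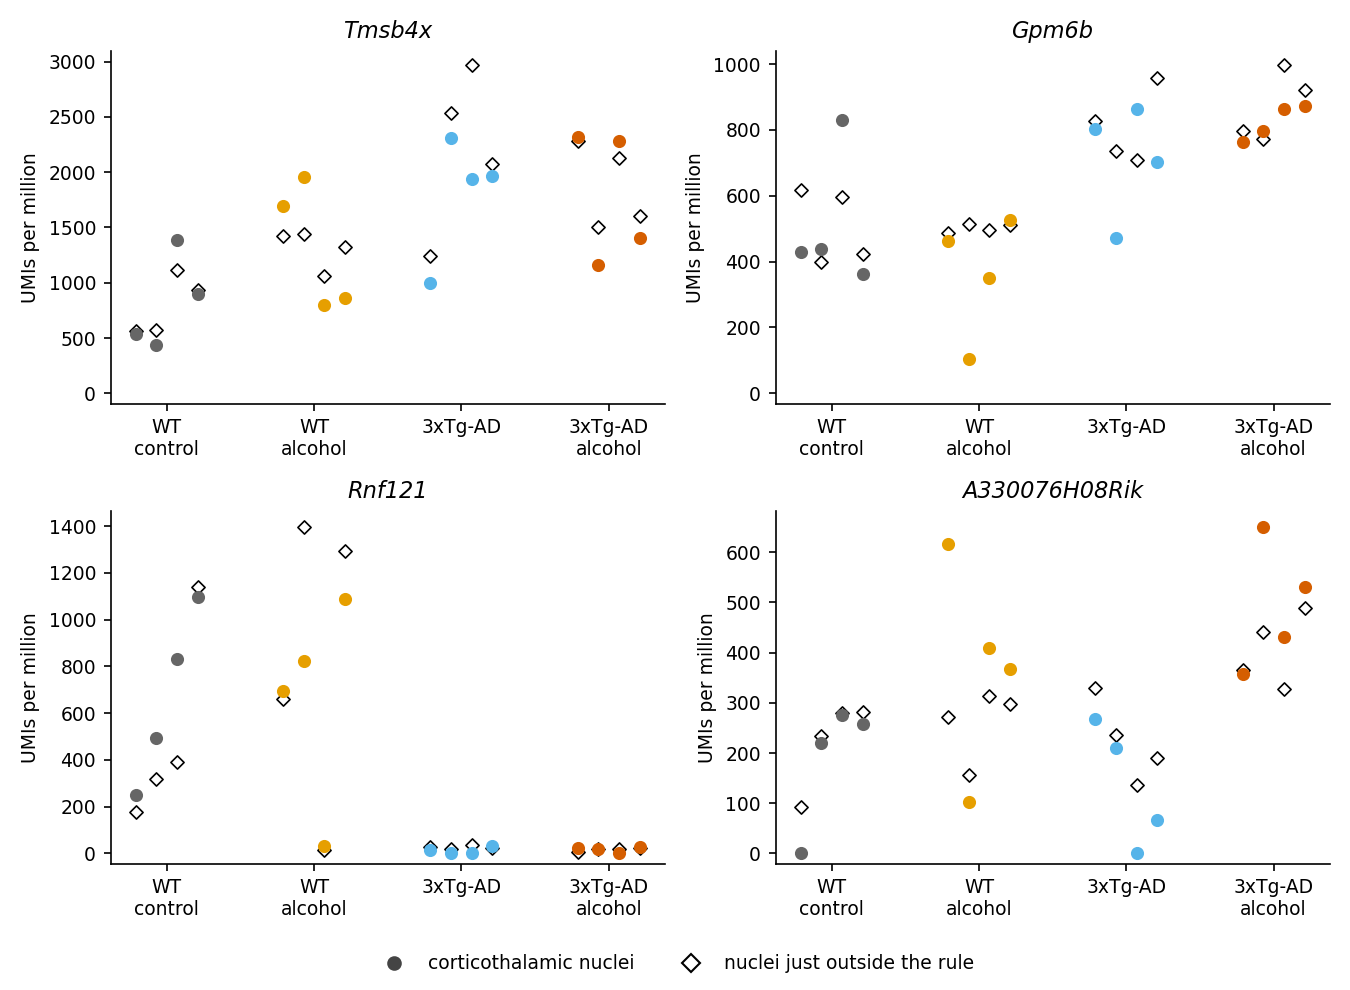
Level (CPM) of the 4 genes that passed in a comparison between groups, 1 filled point per mouse for corticothalamic nuclei and 1 open diamond for nuclei just outside the rule. In the filled points, Rnf121 is at most 33.4 CPM in every 3xTg-AD mouse and in 1 WT alcohol mouse, and Gpm6b is at 764 to 872 CPM in 3xTg-AD alcohol against 103 to 526 CPM in WT alcohol mice.

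The study named 5 genes for this cell type in 3xTg-AD alcohol against WT control. It reported Pcdh17, Pcdh19 and Glra2 as higher and Cntnap5c and Cmss1 as lower. Its cells were assigned by mapping to a reference and tested in DESeq2, so the nuclei here are another set. The genes are given here as values, which are no like-for-like test of the study's calls. Pcdh17, a protocadherin of developing axons and synapses, was at 287, 329, 553 and 508 CPM in WT control, 617, 721, 505 and 403 CPM in WT alcohol, 596, 525, 144 and 534 CPM in 3xTg-AD and 788, 728, 690 and 686 CPM in 3xTg-AD alcohol mice. The 3xTg-AD alcohol mice lay above all WT control mice, and the difference was 0.73 ± 0.27 (log2, SE, adjusted p = 0.239 in edgeR, 0.70 and adjusted p = 0.0799 in the nuclei just outside the rule). Pcdh19, Glra2 and Cmss1 had too few counts for the filter. Without the filter the differences of 3xTg-AD alcohol from WT control were -0.22 ± 0.76, 0.89 ± 0.68 and -1.01 ± 0.995, and Cntnap5c had 0 UMIs.

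Mouse genes linked to the transgenes did not pass either. Mouse App differed by -0.08 ± 0.29 (log2, SE) between 3xTg-AD alcohol and WT control (adjusted p = 0.976 in edgeR), Mapt by 0.03 ± 0.33 (adjusted p = 0.989) and Thy1 by 0.18 ± 0.39 (adjusted p = 0.943). By list, the only gene to pass in any comparison was Tmsb4x, of 3 thymosin and actin genes measured. Synaptic adhesion (12 measured), vesicle release (14), calcium (15), potassium and sodium channel (8), glutamate receptor (7), ribosomal protein (24) and mitochondrial genes (8) had 0 that passed in edgeR in every comparison, where 0 to 3 of all 596 genes (at most 0.503%) passed, so that these counts say nothing about the lists. Ribosomal protein genes had a median difference of 0.20 and mitochondrial genes of 0.19 in 3xTg-AD alcohol against WT control. In that comparison 4 genes associated with ribosomal RNA repeats, Gm42418 among them, had a median of -1.05 against 0.02 for all genes. WT control mice 26 and 27, with 13918 and 11245 CPM of Gm42418, stood apart in this list, whose sum ran from 3786 to 16536 CPM in WT control and from 2349 to 2705 CPM in 3xTg-AD alcohol mice.

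A last comparison asked whether a change with genotype or alcohol was of another size in corticothalamic than in other glutamatergic nuclei. The latter again included the 1470 nuclei just outside the rule. Of 12009 genes, 0 passed for 3xTg-AD alcohol against WT control in edgeR (0%, 670 at an unadjusted p under 0.05), 1 for genotype (0.00833%) and 2 for alcohol (0.0167%). Mrpl9, a mitochondrial ribosomal protein gene, had a change with genotype that was lower by 2.32 ± 0.42 in corticothalamic than in other glutamatergic nuclei (log2, SE, adjusted p = 0.000457 in edgeR). Its UMIs were 1, 0, 0 and 18 in WT control, 1, 0, 30 and 17 in WT alcohol, 3, 0, 0 and 1 in 3xTg-AD and 0, 4, 3 and 7 in 3xTg-AD alcohol mice, so 3 WT mice carried the value, and no gene passed without WT control mouse 36 or without 3xTg-AD mouse 12. Rad18 and Mnt, which passed for alcohol (adjusted p = 0.0391 for Mnt), had 0 UMIs in the 4 WT control mice, and leaving out any 1 of 12 mice left no gene for alcohol.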

How the data were processed

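Nuclei of the medial prefrontal cortex of 16 mice were profiled with the 10x Genomics 3' kit. The authors aligned reads to mm10 with Cell Ranger 6.1.1, which uses STAR, per the submitters' processing notes, and the deposited values are unnormalised UMI counts per gene and nucleus (19999 genes, 114512 nuclei, 216742276 UMIs). The deposited nuclei had passed a quality filter whose limits are not given in the sources used here, and they outnumber those the study states after its filter. The annotation release is not given either. Counts were checked to be whole numbers.

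The rule, the corticothalamic list and the other gene lists (32 in all) were chosen with earlier results of these data known. No doublet caller was run, and the purer set of 313 nuclei stands in for it. Counts of the selected nuclei were summed per mouse and tested with edgeR 4.0.16 quasi-likelihood fits (TMM, filterByExpr, robust; R 4.3.3, limma 3.58.1) over all 4 groups with adjusted p by Benjamini-Hochberg at 0.05, and DESeq2 1.42.0 was an alternative. Corticothalamic and other glutamatergic sums were compared with mouse as a block, at 0.05 and 2-fold, with TMM factors taken from both populations summed over mice, because factors per library were biased in simulated data. Shares were compared with exact permutation tests (scipy 1.17.1), and nuclei were thinned to 1000 UMIs for detection. Genes were named by this rule: those with the smallest adjusted p and a canonical name in each comparison, every list gene that passed, the genes the study names for this cell type, genes linked to the transgenes, corticothalamic genes outside the rule, and the 10 genes with the largest fold in each direction among those of at least 20 CPM. A few genes that met this rule are not reported here. Scripts were tested on simulated counts. Alternatives were RLE factors, no filter, a Gm42418 covariate, stricter, purer and wider rules, and leaving out mice. Replicates are separate mice. Values after ± are SDs over mice or SEs of the edgeR fits over mice, whereas floors cover counting error only. Gene positions are from the mm10 annotation provided, GENCODE on GRCm38. Python 3.11.15, numpy 2.4.6 and pandas 2.3.3 were used.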

Additional observations from a re-analysis of the deposited data

Results flagged for a closer look

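Single mice stood apart within their group of 4 in 6 of 60 groups of values examined, where about 5% would do so by chance. The share of corticothalamic nuclei was 1.95% in WT alcohol mouse 17 against 0.173% to 0.397% in the other mice of its group, and 1.37% in 3xTg-AD mouse 12 against 0.170% to 0.343%. Gpm6b was at 830 CPM in WT control mouse 28, which had 2 corticothalamic nuclei, against 362 to 439 CPM in the others. Pcdh17 was at 144 CPM in 3xTg-AD mouse 14 against 525 to 596 CPM, and Pcdh19 was at 0 CPM in WT alcohol mouse 7 against 35.1 to 39.4 CPM. Col12a1 over all glutamatergic nuclei was at 29.1 CPM in WT control mouse 27 against 18.2 to 18.8 CPM.

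The change in 3 genes differed between corticothalamic and other glutamatergic nuclei by a test of the difference in edgeR. The difference was -2.32 on the log2 scale for Mrpl9 with genotype, and 6.68 for Rad18 and 10.1 for Mnt with alcohol, the last 2 estimates resting on libraries with 0 UMIs.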

How the results depend on the processing

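No paired analysis was possible because the groups share no replicate numbers: mice carry their own numbers. With few nuclei in most mice, counts of passing genes moved with nearly every setting, and the cause was not tested. They are given as genes that passed in 3xTg-AD alcohol against WT control unless another comparison is named. DESeq2 gave 3 (alcohol 3), RLE factors 3 (3xTg-AD alcohol against 3xTg-AD 1, alcohol 2), and no filter 6 (3xTg-AD against WT control 3, WT alcohol against WT control 1, 3xTg-AD alcohol against WT alcohol 5, genotype 7, alcohol 4). Gm42418 as a covariate gave 0 (3xTg-AD against WT control 0, alcohol 0), and leaving out the 3 mice with most Gm42418 gave 0 (3xTg-AD against WT control 0, 3xTg-AD alcohol against 3xTg-AD 1, genotype 1). The stricter rule (71 nuclei, none in several WT mice) gave 0 in 3xTg-AD alcohol against WT alcohol and 1 for genotype.

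Alternatives chosen after seeing the data gave the following counts in the order 3xTg-AD alcohol against WT control, 3xTg-AD against WT control, WT alcohol against WT control, 3xTg-AD alcohol against 3xTg-AD, 3xTg-AD alcohol against WT alcohol, genotype and alcohol. Nuclei just outside the rule gave 18, 3, 2, 1, 16, 23 and 13. Without the 4 mice with most nuclei the counts that moved were 8, 4, 4 and 1 for the first 4 and 5 for alcohol. Over mice with at least 10 nuclei, where WT control is mouse 36 alone and is assumed to vary like the other groups, they were 5 and 2 for the first 2, then 2, 3, 11 and 0 for the last 4, and a rule without Col12a1 gave 0 and 0 for the first 2 and 2 for alcohol.

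The difference between corticothalamic and other glutamatergic nuclei held 626 genes, 314 against depth-matched nuclei, 262 by the stricter rule and 357 without the 4 mice with most nuclei. Changes of another size in corticothalamic nuclei with alcohol numbered 0 with no filter, purer nuclei, the stricter rule, nuclei just outside the rule, mice with at least 10 nuclei, no Col12a1, depth matching and without those 4 mice. With genotype they numbered 0 by the stricter rule and without those 4 mice and 2 in nuclei just outside the rule and without Col12a1, and for 3xTg-AD alcohol against WT control 1 in the last pair of settings.

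Genes near no change switched sign. App in 3xTg-AD alcohol against WT control was 0.065 in DESeq2, 0.23 with no filter, 0.0077 in purer nuclei, 0.080 in nuclei just outside the rule and 0.27 without those 4 mice (0.10 for genotype). Mapt was -0.47 by the stricter rule and -0.26 without those 4 mice (-0.24 for genotype). Thy1 was -0.025 over mice with at least 10 nuclei, and with genotype 0.050 in DESeq2, 0.045 with no filter and 0.11 in nuclei just outside the rule. The share difference of 3xTg-AD from WT control became 0.0141 of all nuclei, 0.00165 thinned, 0.0472 by the stricter rule and 0.0731 in purer nuclei, that of 3xTg-AD alcohol from WT alcohol -0.00346 thinned, of genotype -0.000906 thinned and of WT alcohol from WT control -0.113 in nuclei just outside the rule.

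Leaving out 1 mouse at a time gave counts of 0 to 5 genes in 3xTg-AD alcohol against WT control, 0 to 2 in 3xTg-AD against WT control, 0 to 1 in WT alcohol against WT control, 0 to 2 in 3xTg-AD alcohol against 3xTg-AD, 0 to 1 in 3xTg-AD alcohol against WT alcohol, 1 to 4 for genotype and 0 to 7 for alcohol. The difference between populations held 562 to 634 genes, and changes of another size 0 to 2 for genotype and alcohol. App ran from -0.31 to 0.23, Mapt from -0.21 to 0.23 (-0.021 to 0.20 for genotype) and Thy1 with genotype from -0.082 to 0.033. Share differences ran from -0.0495 to 0.727 points for 3xTg-AD alcohol from WT control, -0.295 to 0.313 for 3xTg-AD from WT control, -0.260 to 0.486 for WT alcohol from WT control, -0.0326 to 0.692 for 3xTg-AD alcohol from 3xTg-AD, -0.205 to 0.657 for 3xTg-AD alcohol from WT alcohol, -0.109 to 0.301 for genotype and 0.0761 to 0.427 for alcohol.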
